A study of Mus musculus with 6 samples.

Results

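The dystrophin-associated complex and the genes of muscle membrane repair were followed in engineered muscle exposed to tumour necrosis factor alpha (TNF-alpha). The set holds 8 genes, taken by symbol from the 24421 rows of the count table: Dmd, Utrn, Sgca, Sgcb, Sgcd, Dag1, Dysf and Cav3. All 8 were found and all 8 passed the filter on low counts. The constructs were made of C2C12 cells, an immortalised mouse myoblast line, cast in a collagen gel that spans artificial tendons and then differentiated in horse serum. One group received TNF-alpha at 100 ng/mL for 72 h and the other its vehicle, PBS, with 3 constructs in each and one RNA-sequencing library per construct. The cells are a single unmodified line with no nerve, vessel or circulating cell supplied, and no label states separate cell batches for the constructs. The p-values below therefore measure the spread between these constructs.

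Dystrophin is a long rod that ties cortical actin to the muscle plasma membrane. At the membrane it binds dystroglycan, whose extracellular subunit holds laminin, and the sarcoglycans lock this assembly in place. Utrophin is the close relative of dystrophin found at the neuromuscular junction and, in immature fibres, along the whole membrane. Where the membrane tears, dysferlin takes part in the calcium-dependent patching of the wound, and caveolin-3 forms the caveolae that buffer membrane tension and binds dysferlin. Loss of dystrophin, of the sarcoglycans, of dysferlin or of caveolin-3 causes muscular dystrophy in humans.

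In TNF-alpha constructs 6 of the 8 genes fell and 1 rose, and the remaining 1 did not pass the test. Dmd, Dag1, Sgca, Sgcb, Dysf and Cav3 fell, by 1.21-fold to 1.84-fold. Sgcd, encoding delta-sarcoglycan, rose 2.29-fold, and Utrn did not pass. A gene was called where the quasi-likelihood test of edgeR gave an adjusted p (Benjamini-Hochberg, over all 15792 genes tested) under 0.05. By that rule 55.5% of all tested genes changed, 27.9% falling and 27.6% rising, so a single call is common in these libraries. The 8 genes had a median log2 fold change of -0.44, beside 0.0048 over all tested genes. In the 7 genes that passed, the groups did not overlap, 6 with TNF-alpha lower and 1 with it higher. The same held for 64.5% of all tested genes, 31.9% with TNF-alpha lower and 32.6% with it higher.

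**Figure D1:**
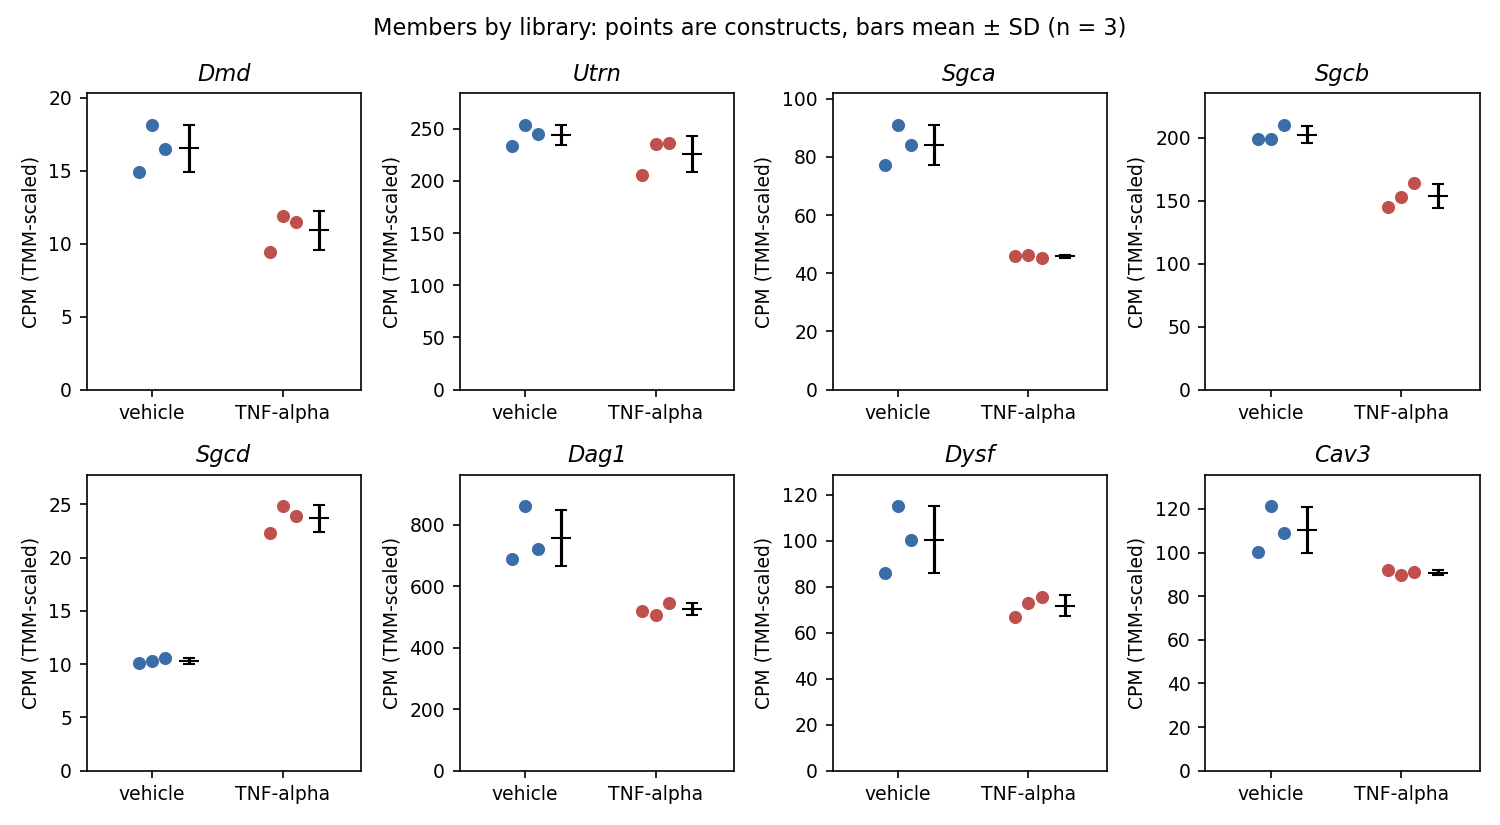
TMM-scaled CPM of the 8 genes in each of the 6 libraries. Points are constructs, and the bars beside them give the mean and SD of 3. Sgcd is the gene with all TNF-alpha points above the vehicle points, and Utrn is the gene whose groups overlap.

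The regions before 4 of the 8 genes are printed so that those that fell can be set beside the one that rose. They run from 250 bases before to 50 bases after an annotated start (RefSeq, GRCm38.p6), 5′ to 3′ on the gene's own strand. Capitals mark every E-box, the general letters CANNTG on either strand. MyoD-family factors bind some forms of the E-box, so a marked stretch need not be a site of theirs.
Sgca, chr11:94976278-94976577, minus strand: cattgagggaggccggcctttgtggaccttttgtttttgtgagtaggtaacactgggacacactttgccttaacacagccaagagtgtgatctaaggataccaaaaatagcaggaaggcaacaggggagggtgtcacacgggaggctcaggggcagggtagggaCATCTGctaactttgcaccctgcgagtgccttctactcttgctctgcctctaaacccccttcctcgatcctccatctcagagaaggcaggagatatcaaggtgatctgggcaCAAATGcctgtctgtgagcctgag
Cav3, chr6:112459255-112459554, plus strand: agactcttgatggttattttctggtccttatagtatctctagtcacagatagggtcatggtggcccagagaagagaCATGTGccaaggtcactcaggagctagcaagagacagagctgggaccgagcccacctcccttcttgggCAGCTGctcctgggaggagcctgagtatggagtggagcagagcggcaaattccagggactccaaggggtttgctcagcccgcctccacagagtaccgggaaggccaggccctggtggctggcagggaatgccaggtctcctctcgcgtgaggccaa
Dmd, muscle start, chrX:82948620-82948919, plus strand: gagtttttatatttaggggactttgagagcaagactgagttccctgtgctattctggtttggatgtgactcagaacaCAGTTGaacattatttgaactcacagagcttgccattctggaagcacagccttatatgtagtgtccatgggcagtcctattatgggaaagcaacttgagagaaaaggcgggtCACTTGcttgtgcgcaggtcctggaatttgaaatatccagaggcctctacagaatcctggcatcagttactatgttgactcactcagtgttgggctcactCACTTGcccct
Sgcd, chr11:47379276-47379575, minus strand: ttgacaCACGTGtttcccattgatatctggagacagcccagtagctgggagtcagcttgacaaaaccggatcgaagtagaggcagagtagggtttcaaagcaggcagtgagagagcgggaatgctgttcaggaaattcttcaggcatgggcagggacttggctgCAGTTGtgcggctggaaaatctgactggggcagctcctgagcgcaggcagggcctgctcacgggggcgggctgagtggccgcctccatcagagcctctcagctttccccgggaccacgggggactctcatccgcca

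All 4 printed windows held an E-box, with 3 in the Dmd window and 2 in each of the others. Not every window of the 8 genes held one. The window of Sgcb, that of the first Dysf start and that of a later Dmd start had none. The Utrn window held the most, 7, though Utrn did not pass the test. Each Dag1 window held 1, as did that of the later Dysf start. Of the 32851 RefSeq windows of this length, 72.3% held at least 1. The letters CAGCTG, a subset of the E-boxes, stood in the Cav3 window alone among the 11 windows that matched the 8 genes, starting 106 bases before the start site. They stood in 16.3% of all windows. Neither GGGANTTTC, a form of the kappaB motif (1.11% of all windows), nor TAAAAATAG, a form of the MEF2 motif (0.493%), stood in any of the 11. Other forms of the kappaB and MEF2 motifs were not searched. With shares this low, absence from 11 windows tells little. These matches are descriptions of the letters in short windows. The Dmd window belongs to the first annotated start, and a later start, at position 85048295 of chromosome X, gives short dystrophins that share the last exons. The counts of the Dmd row sum all of them. The Sgcd window belongs to a RefSeq start that lies inside the longer gene span of GENCODE.

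Dmd, encoding dystrophin (GRCm38 chromosome X, 82948870 to 85206141, plus strand), was the least abundant of the 8 per length of transcript. It stood at 15.0, 18.1 and 16.5 CPM (counts scaled to library size with the TMM method) in the vehicle libraries and at 9.41, 11.9 and 11.5 CPM in the TNF-alpha libraries. The highest TNF-alpha library thus lay below the lowest vehicle library. Dmd fell 1.51-fold (log2 fold change -0.60 ± 0.12 SE, adjusted p = 0.00229 by edgeR).

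Utrn, encoding utrophin (chromosome 10, 12382188 to 12869365, minus strand), held 233, 253 and 245 CPM with vehicle. With TNF-alpha it held 206, 235 and 237 CPM, so that 2 of the 3 treated libraries lay within the vehicle range. Its log2 fold change was -0.11, with a 95% interval of -0.28 to 0.05 (edgeR adjusted p = 0.226). The interval still allows a fall of that lower size.

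Dag1 encodes dystroglycan, the precursor cut into the laminin-binding alpha and the membrane-spanning beta subunit (chromosome 9, 108204634 to 108263958, minus strand). It was the most abundant of the 8 genes, at 689, 861 and 722 CPM with vehicle and 521, 508 and 547 CPM with TNF-alpha. Vehicle replicate 2 stood above the other vehicle libraries, and the groups did not overlap. Dag1 fell 1.44-fold (log2 fold change -0.53 ± 0.09, edgeR adjusted p = 0.0013).

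The sarcoglycans did not move together. Sgca, encoding alpha-sarcoglycan (chromosome 11, 94962791 to 94976327, minus strand), had 77.3, 90.8 and 83.9 CPM with vehicle and 45.8, 46.1 and 45.4 CPM with TNF-alpha. The treated libraries were close to each other and far below every vehicle library, a fall of 1.84-fold (log2 fold change -0.88 ± 0.07, edgeR adjusted p = 1.38e-05). This was the largest fall among the 8 genes.

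Sgcb, encoding beta-sarcoglycan, which with delta-sarcoglycan forms the core of the complex (chromosome 5, 73632749 to 73647790, minus strand), went from 199, 199 and 210.0 CPM to 145, 153 and 164 CPM. It fell 1.31-fold without overlap (log2 fold change -0.40 ± 0.06, edgeR adjusted p = 9.23e-04). Sgcd (chromosome 11, 46896253 to 47988969, minus strand) went the other way. It stood at 10.1, 10.3 and 10.6 CPM with vehicle and at 22.3, 24.8 and 24.0 CPM with TNF-alpha, so that even the lowest treated library was more than 10 CPM above the highest vehicle library. The log2 fold change of Sgcd was 1.20 ± 0.08 (edgeR adjusted p = 5.16e-06).

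Outside the 8 genes, Sgce, encoding the broadly expressed epsilon-sarcoglycan, fell from 39.4 ± 2.69 to 29.5 ± 1.41 CPM (SD, n = 3). Per kilobase of exon, Sgcd took 1.21% ± 0.031 of the summed level of Sgca, Sgcb, Sgcd and Sgce with vehicle and 4.09% ± 0.18 with TNF-alpha (SD, n = 3). Sgcb went from 48.4% ± 1.88 to 54.2% ± 1.53. Sgca went from 46.8% ± 2.21 to 37.7% ± 1.40. For each of these 3 genes the libraries of the groups did not overlap, and Sgcd remained a small part of the sum in both. The shares were not tested, and they depend on the length used: with the longest transcript in place of all exons, Sgcd took 2.04% and 6.71%.

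**Figure D2:**
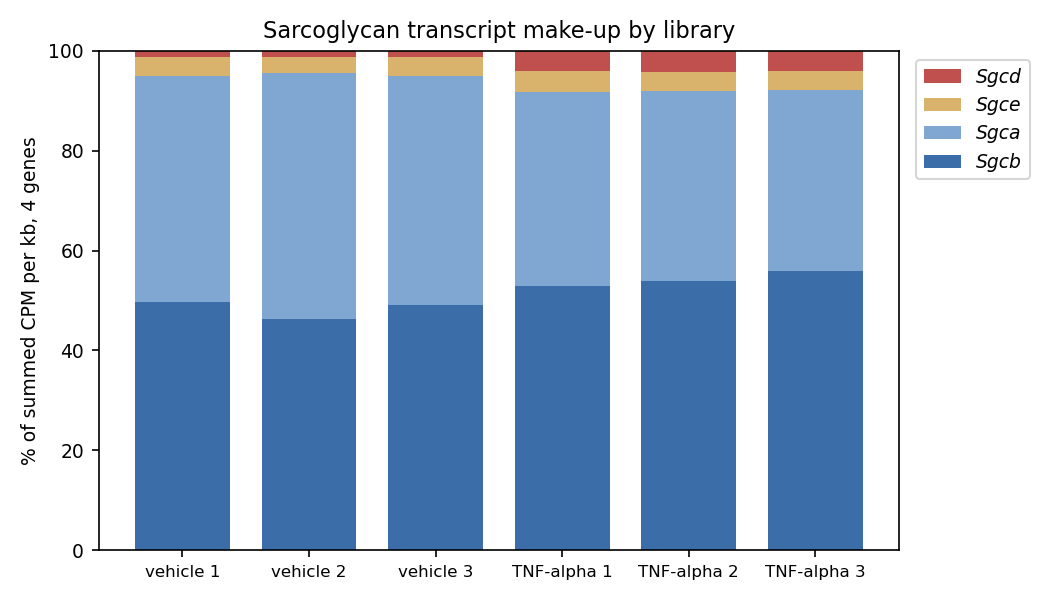
Share of each transcript in the summed level of Sgca, Sgcb, Sgcd and Sgce, as TMM-scaled CPM per kilobase of exon, for each of the 6 libraries. The Sgcd segment at the top is 1.18% to 1.24% in the vehicle bars and 3.98% to 4.30% in the TNF-alpha bars.

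Dysf encodes dysferlin, a calcium-binding membrane protein of the ferlin family (chromosome 6, 84008590 to 84211060, plus strand). Its level was 85.9, 115 and 101 CPM with vehicle and 66.9, 73.1 and 75.5 CPM with TNF-alpha. The vehicle libraries were widely spread, but the lowest of them was above the highest treated one. Dysf fell 1.40-fold (log2 fold change -0.49 ± 0.10, edgeR adjusted p = 0.00424). Exons of 2 annotated antisense genes, Gm15475 and Gm33024, share 352 and 105 bases with Dysf exons. These are 4.23% and 1.26% of the Dysf exon bases, and neither gene is among the rows. Whether the counting used strand is not given in the sources used here.

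Cav3, encoding the muscle caveolin (chromosome 6, 112459505 to 112472872, plus strand), had the smallest fall that passed. It went from 100.2, 121 and 109 CPM to 92.0, 89.7 and 90.9 CPM, without overlap. The fall was 1.21-fold (log2 fold change -0.28 ± 0.07, edgeR adjusted p = 0.011). Vehicle replicate 2 was the highest vehicle library for 6 of the 8 genes, Cav3 included. Without it the Cav3 log2 fold change was -0.21 (adjusted p = 0.0352), and the count of 6 falls and 1 rise was the same.

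Levels of different genes can be compared only per length. In TMM-scaled CPM per kilobase of exon, the vehicle order was Dag1 (119), Cav3 (95.2), Sgcb (50.0), Sgca (48.4), Utrn (14.3), Dysf (12.1), Sgcd (1.25) and Dmd (0.695). Sgcb and Sgca overlapped in the vehicle libraries, as did Utrn and Dysf, and the other neighbours did not. With TNF-alpha the order was the same and no neighbours overlapped: Sgcb stood at 38.0 and Sgca at 26.4, Dag1 at 82.6 and Cav3 at 78.5. Utrn was at 13.2 and Dysf at 8.62, while Sgcd was at 2.87 and Dmd at 0.459. Values for very long transcripts such as those of Dmd and Utrn also depend on which isoforms were present and on how evenly reads covered them, which a count per gene does not show.

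Each of 4 muscle genes was set against a more broadly expressed relative within the same library, which removes the scaling between libraries. The log2 ratio of Utrn to Dmd was 3.96, 3.80 and 3.89 with vehicle and 4.45, 4.30 and 4.36 with TNF-alpha, a shift of 0.49. The ratio of Sgce to Sgca shifted by 0.46, from -1.09 ± 0.19 to -0.63 ± 0.08 (SD, n = 3). The ratio of Myof, encoding the dysferlin relative myoferlin, to Dysf shifted by 0.62, from 2.26 ± 0.31 to 2.88 ± 0.11. The shift from the muscle gene to its relative was widest for Cav1 over Cav3, by 1.42, from 0.24 ± 0.39 to 1.66 ± 0.16. All 4 ratios were higher in each treated library than in any vehicle library. The exact two-sided permutation p was 0.1 for each, or 0.1 adjusted over the 4, the smallest that 3 against 3 libraries allow. The 4 muscle genes had each fallen without overlap, so these shifts are not separate from those falls. Among all tested genes taken singly, the groups of 64.5% did not overlap. The same share for ratios of gene pairs was not counted.

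The relatives themselves moved in different directions. Cav1, encoding the caveolin of most other cell types, rose from 132 ± 32.3 to 288 ± 28.1 CPM (log2 fold change 1.13 ± 0.17, edgeR adjusted p = 0.00124). Myof had 478 ± 31.6 and 529 ± 61.2 CPM (log2 fold change 0.14, 95% interval -0.07 to 0.36, edgeR adjusted p = 0.23). Leaving out TNF-alpha replicate 1 gave Myof a log2 fold change of 0.23 and an edgeR adjusted p of 0.0407. Sgce fell (log2 fold change -0.42 ± 0.07, edgeR adjusted p = 0.0013).

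**Figure D3:**
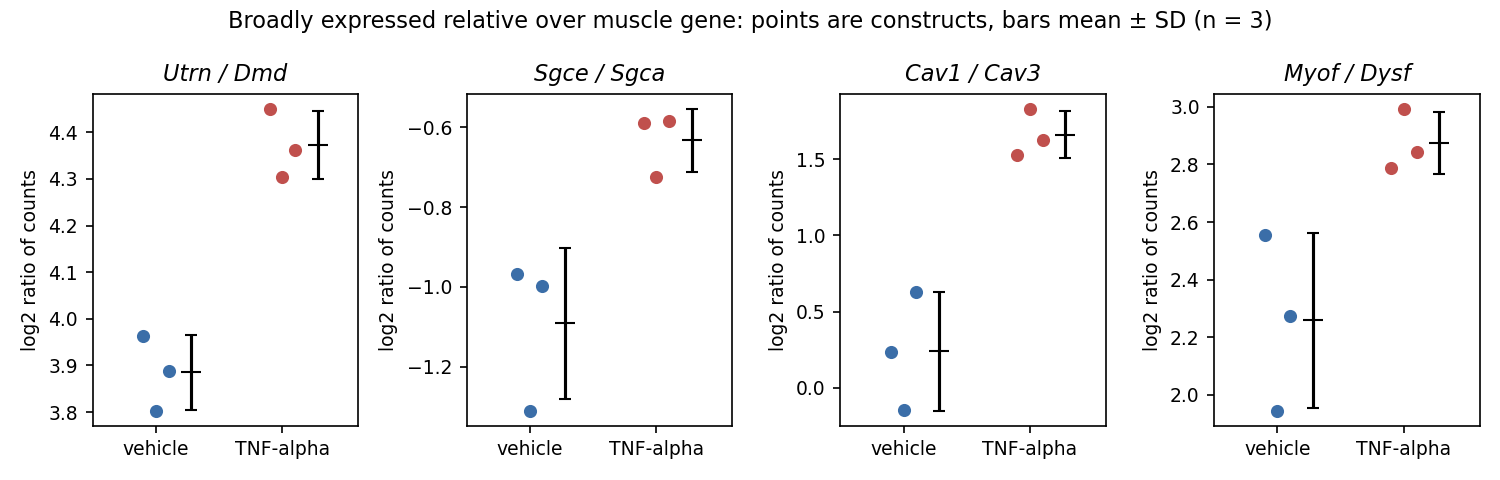
Log2 ratio of the counts of a more broadly expressed relative to those of the muscle gene, in each library. Points are constructs and bars give the mean and SD of 3; the axes differ and do not start at 0. In all 4 panels every TNF-alpha point is above every vehicle point.

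Among the other genes of the dystrophin complex, 7 of 10 were tested. Of these 5 fell and 2 rose, with a median log2 fold change of -0.53, beside 27.9% falling and 27.6% rising over all tested genes. Sgcz, Sntg1 and Sntg2 were not tested, with at most 4 counts in a library. Sntb1, encoding the adaptor beta-1-syntrophin, fell from 32.6 ± 2.40 to 11.6 ± 0.16 CPM (log2 fold change -1.49 ± 0.08, edgeR adjusted p = 1.47e-06). Dtna, encoding alpha-dystrobrevin, fell from 87.7 ± 5.58 to 60.8 ± 2.50 CPM (log2 fold change -0.53 ± 0.07, edgeR adjusted p = 1.87e-04). Dtnb, encoding beta-dystrobrevin, a cytoplasmic partner of dystrophin and the syntrophins, rose from 9.03 ± 0.25 to 17.3 ± 0.95 CPM (log2 fold change 0.94 ± 0.08, edgeR adjusted p = 2.88e-05). Sspn and Sgce fell as well.

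Nos1 and Sntb2 were singled out after their values were seen. Nos1, encoding the neuronal nitric oxide synthase that the complex anchors at the membrane, stood at 32.1, 47.4 and 23.8 CPM with vehicle and at 1.68, 0.819 and 0.550 CPM with TNF-alpha. This was the widest change among the genes of the complex described here, 33.5-fold lower (log2 fold change -5.07 ± 0.48, edgeR adjusted p = 3.48e-04). Sntb2, encoding beta-2-syntrophin, rose 1.36-fold (edgeR adjusted p = 0.0123). Leaving out vehicle replicate 1 or TNF-alpha replicate 3 brought this to 0.0505 and 0.0549, which leaves 1 rise in the list.

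**Figure D4:**
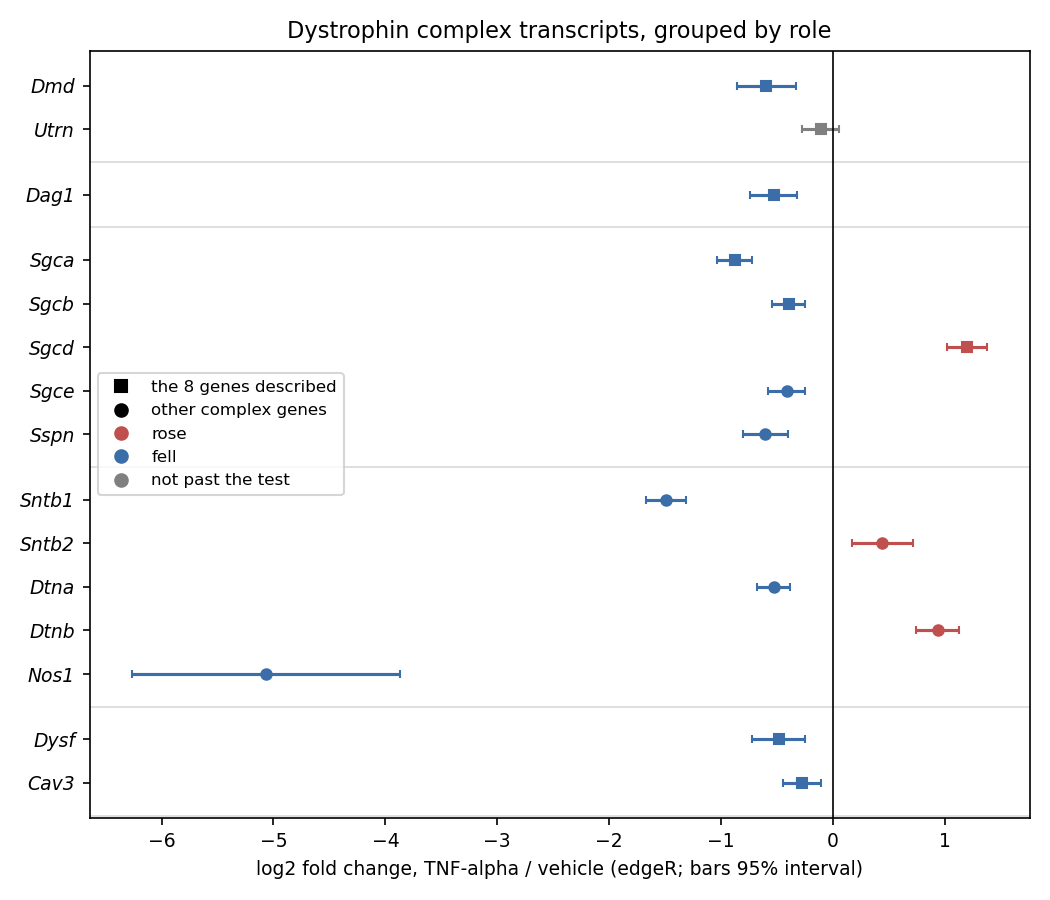
Log2 fold change of TNF-alpha over vehicle for the tested genes of the complex described here and for Dysf and Cav3, by role, with 95% intervals from edgeR. Squares are the 8 genes described and circles the other genes of the complex. Sgcd, Dtnb and Sntb2 are the genes to the right of 0 that passed the test, and Nos1 lies farthest to the left.

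Enzymes that build the laminin-binding sugar of alpha-dystroglycan moved in both directions. All 16 were tested, with 5 rising, 4 falling and 7 not past the test (median log2 fold change -0.01). These counts lie near the shares over all tested genes, 27.6% rising and 27.9% falling. Rxylt1, a xylosyltransferase of that sugar listed under its older symbol Tmem5, rose 1.39-fold and Pomk, a kinase of its core, 1.24-fold. Pomgnt1, an N-acetylglucosaminyltransferase, fell 1.26-fold (edgeR adjusted p = 0.00147, 0.0045 and 0.00161).

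The extracellular partners of dystroglycan all passed the test, 5 of 10 rising and 5 falling, where 55.5% of all tested genes passed. Lama2, encoding the laminin chain of mature muscle basement membrane, fell 1.98-fold, from 142 ± 4.35 to 71.6 ± 12.2 CPM (edgeR adjusted p = 2.01e-04). Bgn, encoding the proteoglycan biglycan, fell 3.10-fold (edgeR adjusted p = 7.75e-04). Lama4, encoding a laminin chain of vessels and of developing muscle, rose 1.97-fold, from 60.6 ± 6.97 to 119 ± 4.39 CPM (edgeR adjusted p = 2.34e-05). Agrn, encoding agrin, a dystroglycan ligand that clusters acetylcholine receptors, was picked after its values were seen and rose 2.09-fold. The count of falls was 3 without vehicle replicate 2 and 3 without TNF-alpha replicate 1.

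Of the 25 other genes of membrane repair, 23 were tested. Of these 9 fell, 6 rose and 8 did not pass (median log2 fold change -0.0044), beside 27.9% falling and 27.6% rising over all tested genes. Otof had at most 2 counts and Fer1l6 is not among the rows. Anxa6, encoding an annexin of the repair cap, fell from 660.1 ± 30.6 to 294 ± 11.1 CPM (log2 fold change -1.17 ± 0.07, edgeR adjusted p = 2.69e-06). Ano5, a limb-girdle dystrophy gene encoding a phospholipid scramblase, fell 4.87-fold to 9.06 ± 0.74 CPM (edgeR adjusted p = 4.57e-06). Vps4b, encoding an ATPase that takes ESCRT filaments apart, rose 1.30-fold (edgeR adjusted p = 2.91e-04).

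Trim72, Capn3 and Syt7 were picked after their values were seen. Trim72, encoding MG53, which starts the repair patch and binds dysferlin, fell 1.89-fold, from 269 ± 45.2 to 142 ± 8.64 CPM (edgeR adjusted p = 3.35e-04). Capn3, encoding the muscle calpain, fell 2.80-fold (edgeR adjusted p = 3.68e-05). Syt7, encoding a calcium sensor of lysosome exocytosis, rose from 0.592, 0.774 and 2.01 CPM to 11.9, 20.0 and 18.1 CPM (edgeR adjusted p = 0.00102).

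All 15 genes of caveolae and membrane tubules were tested, with 10 falling, 4 rising and 1 not past the test (median log2 fold change -0.38). Over all tested genes 27.9% fell and 27.6% rose. Ehd2, an ATPase at the neck of caveolae, fell 1.83-fold and its relative Ehd4 1.84-fold (edgeR adjusted p = 5.67e-06 and 6.08e-06). Cav2, the partner of caveolin-1, rose 2.05-fold, from 15.5 ± 1.47 to 31.7 ± 2.73 CPM (edgeR adjusted p = 3.67e-05). Cavin4, the muscle cavin, picked after its values were seen and listed under its older symbol Murc, fell 2.04-fold, from 409 ± 21.9 to 200.2 ± 12.9 CPM. Differences between genes of this list were not tested.

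**Figure D5:**
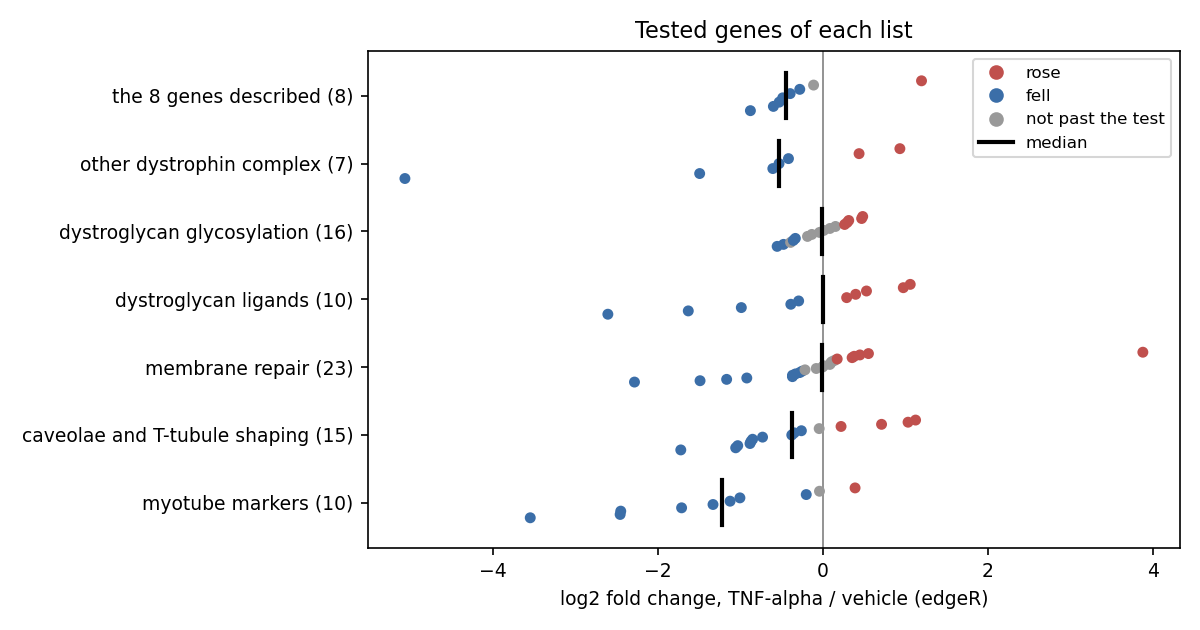
Log2 fold change of TNF-alpha over vehicle for each tested gene of 7 lists, with the number tested in brackets. Points are genes, coloured by the edgeR call, and black bars give list medians. The median of the 8 genes is -0.44 and that of the myotube markers -1.23.

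Markers of differentiated myotubes moved in the same direction as most of the 8 genes. Of 10 such markers, 8 fell and 1, Myog, rose, with a median log2 fold change of -1.23. Over all tested genes 27.9% fell and 27.6% rose. Their summed level was 12409 to 14384 CPM in vehicle libraries and 7813 to 9010 CPM in TNF-alpha libraries. In bulk RNA, fewer myotubes and less of a transcript per myotube cannot be told apart, and the part of this shift in the results was not tested. Of 6 myoblast markers 4 fell and 1 rose, with sums of 1827 to 2269 CPM and 1460 to 1537 CPM. Most of these sums was Itga7, at 1367 CPM with vehicle and 916 CPM with TNF-alpha, and Cdh15 and Myod1 fell too. Pax7 fell from 0.858 to 0.272 CPM, Myf5 rose from 9.17 to 12.9 CPM and Vcam1 did not pass the test. Of 6 fibroblast markers 2 rose and 2 fell, with sums of 8363 to 8844 CPM and 10372 to 11458 CPM, and Tcf21 was at 0 and Thy1 at no more than 4 counts in every library. The higher sum with TNF-alpha rested on Dcn, which rose from 2029 to 6022 CPM, while Pdgfra rose from 38.8 to 59.0 CPM. Col3a1 fell from 6258 to 4606 CPM and Col1a1 from 273 to 108 CPM. Of 4 smooth-muscle markers 2 fell, with sums of 1317 to 1673 CPM and 257 to 296 CPM. Nearly all of these sums was Acta2, at 1461 CPM with vehicle and 267 CPM with TNF-alpha, and Tagln also fell. Myh11 (0.335 and 0.331 CPM) and Cnn1 (0.245 and 0.120 CPM) were near 0 in both groups and did not pass the test. Of 5 macrophage markers 2, Cd68 and Csf1r, rose, with sums of 5.29 to 5.52 CPM and 20.8 to 22.5 CPM. Ptprc stood at no more than 4 counts in a library and Adgre1 at no more than 2. Endothelial markers summed to at most 3.63 CPM and adipocyte markers to at most 0.609 CPM in a library, with Lep at 0. The part of these other lists in the results was not tested either.

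Library patterns were ranked among 9469 other tested genes with a mean of at least 10 CPM, leaving out predicted genes (Gm, Rik and LOC names). The pattern most like that of Dmd was shown by Tacc1 (Pearson r of log2 CPM = 0.997 over the 6 libraries), Fn1 (0.996) and Casp9 (0.995). The pattern most like that of Utrn was shown by Adgrl1 (0.995), Smarcc1 (0.988) and Mmp15 (0.985). With Dmd 398 genes had an r over 0.95 and with Utrn 25. The 6 libraries share the division into treated and untreated constructs, and that division enters every r.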

How the data were processed

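Polyadenylated RNA from 6 constructs, 3 per group, was sequenced, and the titles gave each group and replicate number. The values deposited are estimated counts of each gene: per library, 20.2% to 21.0% have decimals. Per the submitters' processing notes, the tools were TopHat2 2.1.1, Bowtie2 2.3.5.1, featureCounts of Subread 2.0.0 and DESeq2, and the builds were mm10 and GRCm38, with no role for each. Whether counting used strand or split shared reads is not given in the sources used here. Libraries held 81713008 to 93533748 counts.

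Counts were rounded, since the plan had assumed whole counts, then filtered with filterByExpr, scaled with TMM and tested across all genes with edgeR 4.0.16 (R 4.3.3; glmQLFit robust, glmQLFTest, group as the only term). Standard errors and 95% intervals came from the F statistic. The test was tried on simulated counts with known changes in far fewer genes than were called here. Its behaviour with as many changes as in these libraries was therefore not tried. Ratios within a library used a prior of 0.5 counts and exact permutation tests. Positions and lengths came from GENCODE M21 (GRCm38). The 8 genes, the 5 related lists and the marker lists were chosen with earlier results of these data known. Lists used the table's older symbol for 7 genes. Genes were named by rule: the 8 genes, their relatives in the ratios, per list the 2 genes of lowest p in the commoner direction (falls where equal) and 1 in the other, and 3 genes of like pattern each for Dmd and Utrn. Others are said to have been picked after their values were seen. Sspn and Sgce are given as further examples from their list. Some genes of the complex are not reported here, and the counts and shares leave them out. Within groups, no libraries agreed within sampling noise (chi-square per degree of freedom 23.9 to 73.1). Alternatives were other scaling, filters, DESeq2 1.42.0, limma-voom (limma 3.58.1), no robust estimation, a replicate block, and leaving out each library.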

Additional observations from a re-analysis of the deposited data

How the results depend on the processing

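The 8 genes kept their direction and their side of the threshold under all 14 alternatives, with 6 falling and 1 rising each time. Among the 8 genes the log2 fold change ranged most for Dysf, from -0.59 to -0.38. That of Utrn, which did not pass the test, went from -0.15 to -0.05 (adjusted p from 0.118 to 0.571). The order of the 8 genes per kilobase and the direction of the 4 ratios were the same under every alternative tried for them. Over all genes, 4040 rose and 4763 fell with upper-quartile scaling, and 3136 rose and 3032 fell with the stricter filter, which tests fewer genes. Leaving out 1 library, the rises in the list of other complex genes numbered 1 to 2 and the falls among dystroglycan ligands 3 to 5. With a replicate block, 4242 genes rose and 4244 fell, and the 8 genes gave 6 falls and 1 rise. The labels give the same replicate numbers to both groups but no shared batch, and same-numbered libraries deviated together with correlations of 0.04, -0.05 and -0.11, so the numbers were not taken as pairs. Only vehicle replicate 1 among the vehicle libraries correlated best with its own number. The counts do not separate isoforms, so falls of single Dmd or Dysf products were not detectable here.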
